A study of Drosophila melanogaster with 4 samples.

Results

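Runs of closely spaced Sfmbt clusters are places on the large autosomal arms where the Polycomb group protein Sfmbt was found at several neighbouring sites. A cluster is a stretch of the genome that the authors called as significantly enriched. Members were chosen by their measured positions in the deposited lists. They were taken from the list that the authors made from both ChIP replicates together, here the combined list, on arms 2L, 2R, 3L and 3R, if they overlapped a cluster of each replicate's own list by at least 1 bp. These reproducible clusters were joined along an arm when the gap between them was under 3000 bp, and chains of 3 or more clusters were called runs. The rule found 843 members in 247 runs, out of 4310 reproducible clusters and 6360 combined-list clusters on these arms and 8434 clusters in the whole combined list.

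The sites of Sfmbt were found by ChIP-seq (chromatin immunoprecipitation followed by sequencing) with the antibody Q2642 in nuclei of heads from adult flies (mixed adult stage) of the wild-type strain Oregon-R. All samples share this genotype and tissue, and there is no treatment or mutant to compare. The series holds 2 ChIP samples and 2 input samples, and 3 lists of clusters were used, 1 for each ChIP replicate and the combined list. Positions are those of FlyBase release 5, and each cluster carries the authors' own score on a log2 scale. Fly heads hold many cell types, so a run can be made of sites bound in different cells. Nothing in the labels tells whether each ChIP sample had its own batch of flies. Their spread may thus be technical only, and the read depth behind the scores is unknown.

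Sfmbt, a protein with MBT repeats that bind methylated histone tails, forms the Pho repressive complex together with Pho, a DNA-binding protein of the Polycomb group. The complex sits at Polycomb response elements, which are DNA elements that recruit the larger Polycomb complexes and help to keep developmental genes silent. In Drosophila, genes under Polycomb control can carry several such elements within a short distance. No gene names are given for the runs, since the gene table used here is of release 6. The membership, the gaps and the scores all come from the lists that chose the members, so the values below are descriptions and were not tested.

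Most runs were short. Of the 247 runs, 175 held 3 clusters, 51 held 4, 14 held 5, 6 held 6 and 1 held 8. The members were 19.6% of the reproducible clusters (95% exact binomial interval 18.4 to 20.8%, which covers counting error only). The interval counts clusters as independent, but clusters enter a run together, so it is likely too narrow. Another 1122 clusters (26.0%) lay in 561 pairs, and 2345 (54.4%) had no neighbour within 3000 bp. The median run spanned 13114 bp, with quartiles of 10582 and 16364 bp and extremes of 6480 and 57851 bp. Clusters filled a median of 76.5% of a run's span, and never less than 54.02%. The rule joins clusters only over gaps under 3000 bp, so much of this filling is built in. The share is also that of the combined list, and most gaps were wider in the replicates' own lists. Member widths had a median of 2583 bp, beside 2592 bp for clusters in pairs and 2521 bp for clusters alone.

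The spacing of clusters has no break at the limit that defines the runs. Gaps between neighbouring reproducible clusters thinned out steadily, from 245 gaps under 500 bp to 156 gaps of 2500 to 2999 bp and 134 gaps in the next bin of 500 bp. Just inside the limit, gaps of 2987 and 2983 bp joined members of runs of 3 on 3L. Just outside it, a gap of 3000 bp on 3R kept the cluster at 8290110 to 8294637 apart from the run of 3 that ends at 8287109, and a gap of 3001 bp kept the cluster at 12173970 to 12178338 apart from a pair. Which chains count as runs is thus a matter of the chosen limit.

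**Figure D1:**
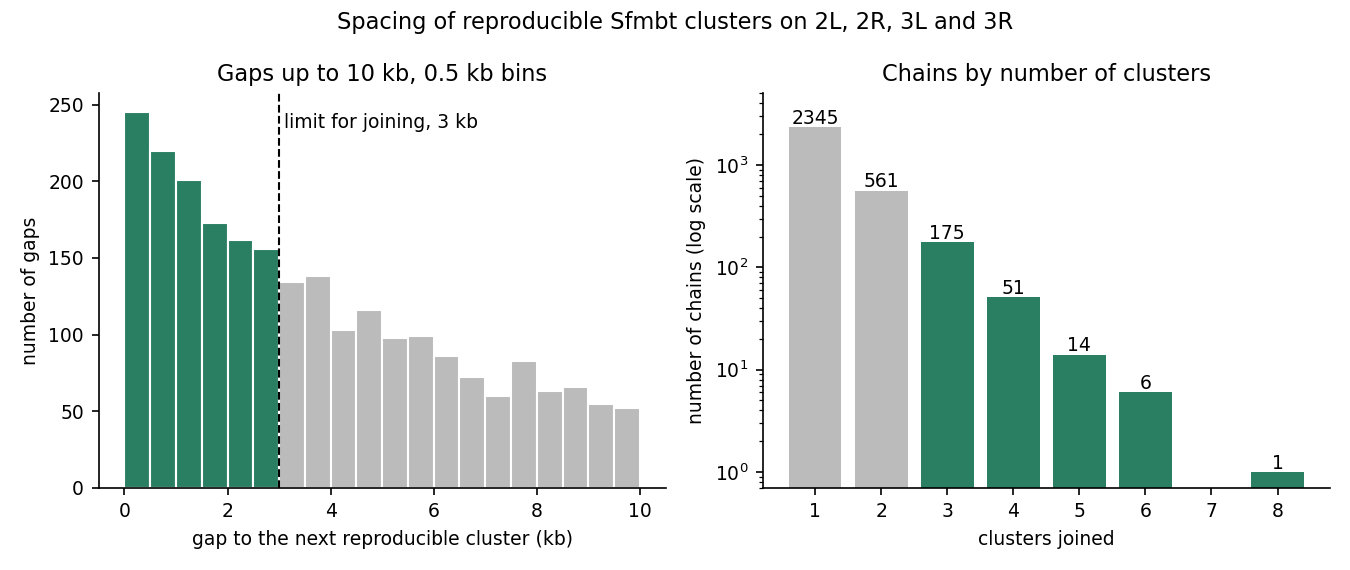
Left, the number of gaps between neighbouring reproducible clusters by gap size in kb, in bins of 0.5 kb up to 10 kb, with the gaps that join clusters in green. Right, the number of chains, on a log axis, by the number of clusters joined. Gap counts fall from 245 in the first bin to 156 in the last bin under the limit and 134 in the next, with no step at the limit, and chains fall from 2345 single clusters to 1 chain of 8.

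Runs lay on all 4 arms at a similar rate. Arm 2L had 58 of them, 2R had 59, 3L had 56 and 3R had 74, or 2.52, 2.79, 2.28 and 2.65 runs per Mb. The share of an arm's reproducible clusters that were in runs was 21.6% on 2L (interval 19.01 to 24.4%), 19.4% on 2R (17.1 to 21.9%), 18.4% on 3L (16.1 to 20.9%) and 19.1% on 3R (17.0 to 21.4%). These intervals overlap one another, and they too count the clusters of a run as independent. The spans of the runs took up 3.67% of the 4 arms together, from 3.18% of 3L to 4.48% of 2R.

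Along the arms, runs were most frequent where clusters were dense in general. Of 99 bins of 1 Mb, 15 held no run, 38 held 1 or 2, 36 held 3 or 4 and 10 held 5 or more. The last bin of each arm is cut short by the arm's end and is counted like the others. Bins without a run held a median of 29 reproducible clusters, and bins with 5 or more held a median of 58. Across the 99 bins the numbers of clusters and of runs gave 0.701 as Spearman's rho and 0.665 as Pearson's r, and both numbers come from the same clusters. The fullest bin, 2L 10000001 to 11000000, held 8 runs. The bins 2R 5000001 to 6000000, 2R 13000001 to 14000000 and 3L 9000001 to 10000000 held 7 each. The longest stretch between neighbouring runs was on 2R, where 1663401 bp from 15391522 to 17054922 held none. Arm ends are left out of this, and 3L had a longer stretch without runs after its last run, from 22866281 to the arm's end at 24543557. The median distance between runs was 216708 bp on 2R to 288103 bp on 3L. Next-door runs were uncommon, since 15 pairs of runs lay within 20000 bp of each other.

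The fullest run held 8 clusters at 2R 2530907 to 2564514, a span of 33608 bp. With a limit of 2000 or 1000 bp no run held more than 5 clusters, and with clusters at or above the median score none held more than 4. Its scores in order along the arm were 0.88, 0.79, 0.57, 1.05, 2.13, 0.74, 0.60 and 0.40 in replicate 1. In replicate 2 they were 0.86, 0.69, 0.37, 0.70, 1.76, 0.83, 0.54 and 0.56. The fifth cluster, at 2548322 to 2552435, stood above the others in both replicates, and the rest lay at or below 1.05. The 7 gaps were 407 to 2298 bp wide in the combined list, 893 to 2764 bp in replicate 1 and 452 to 2924 bp in replicate 2. The members thus formed 1 chain in each replicate's own list too.

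The run with the longest span was 57851 bp long, at 3R 12030010 to 12087860, and it was also the fullest of 3R with 6 clusters. Its scores in order were 1.19, 0.74, 1.33, 1.63, 0.85 and 2.50 in replicate 1, and 1.24, 0.65, 0.66, 1.47, 0.81 and 2.35 in replicate 2. Its last cluster, 2663 bp wide at 12085198 to 12087860, was the strongest of all 843 members and ranked 6 among the 4310 reproducible clusters of these arms. The fourth cluster, 32802 bp wide, was the widest member. That wide cluster was broken up in the replicates' own lists, and in replicate 2 a break inside it was too wide for the run to be 1 chain. The third cluster differed most between the replicates, with 1.33 against 0.66.

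The other runs of 6 clusters were 22030 to 33969 bp long, and their scores were mostly lower. At 2L 13365223 to 13388458 the scores ran from 0.36 to 1.11 in replicate 1 and from 0.27 to 1.13 in replicate 2, and the highest was the third cluster in replicate 1 and the fourth in replicate 2. At 2L 18687847 to 18709876 they ran from 0.63 to 1.21 and from 0.40 to 1.27, with the last cluster highest in both. At 2R 19743491 to 19771021 the second cluster led in both replicates, with 1.74 and 1.44, and the others were at or below 1.02. One strong cluster among weaker ones was thus seen in this run, as in the run of 8 on the same arm. At 3L 679462 to 713430 the last cluster led with 1.81 and 1.69, and at 3L 3805431 to 3828521 (a run named after its values were seen) all scores lay between 0.50 and 0.93. That last run was the most even of them and was 1 chain in both replicates. The 4 others were each cut in at least 1 replicate's own list by a gap of 3000 bp or more, such as gaps of 3022 and 3031 bp in replicate 1 for the first run on 2L.

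**Figure D2:**
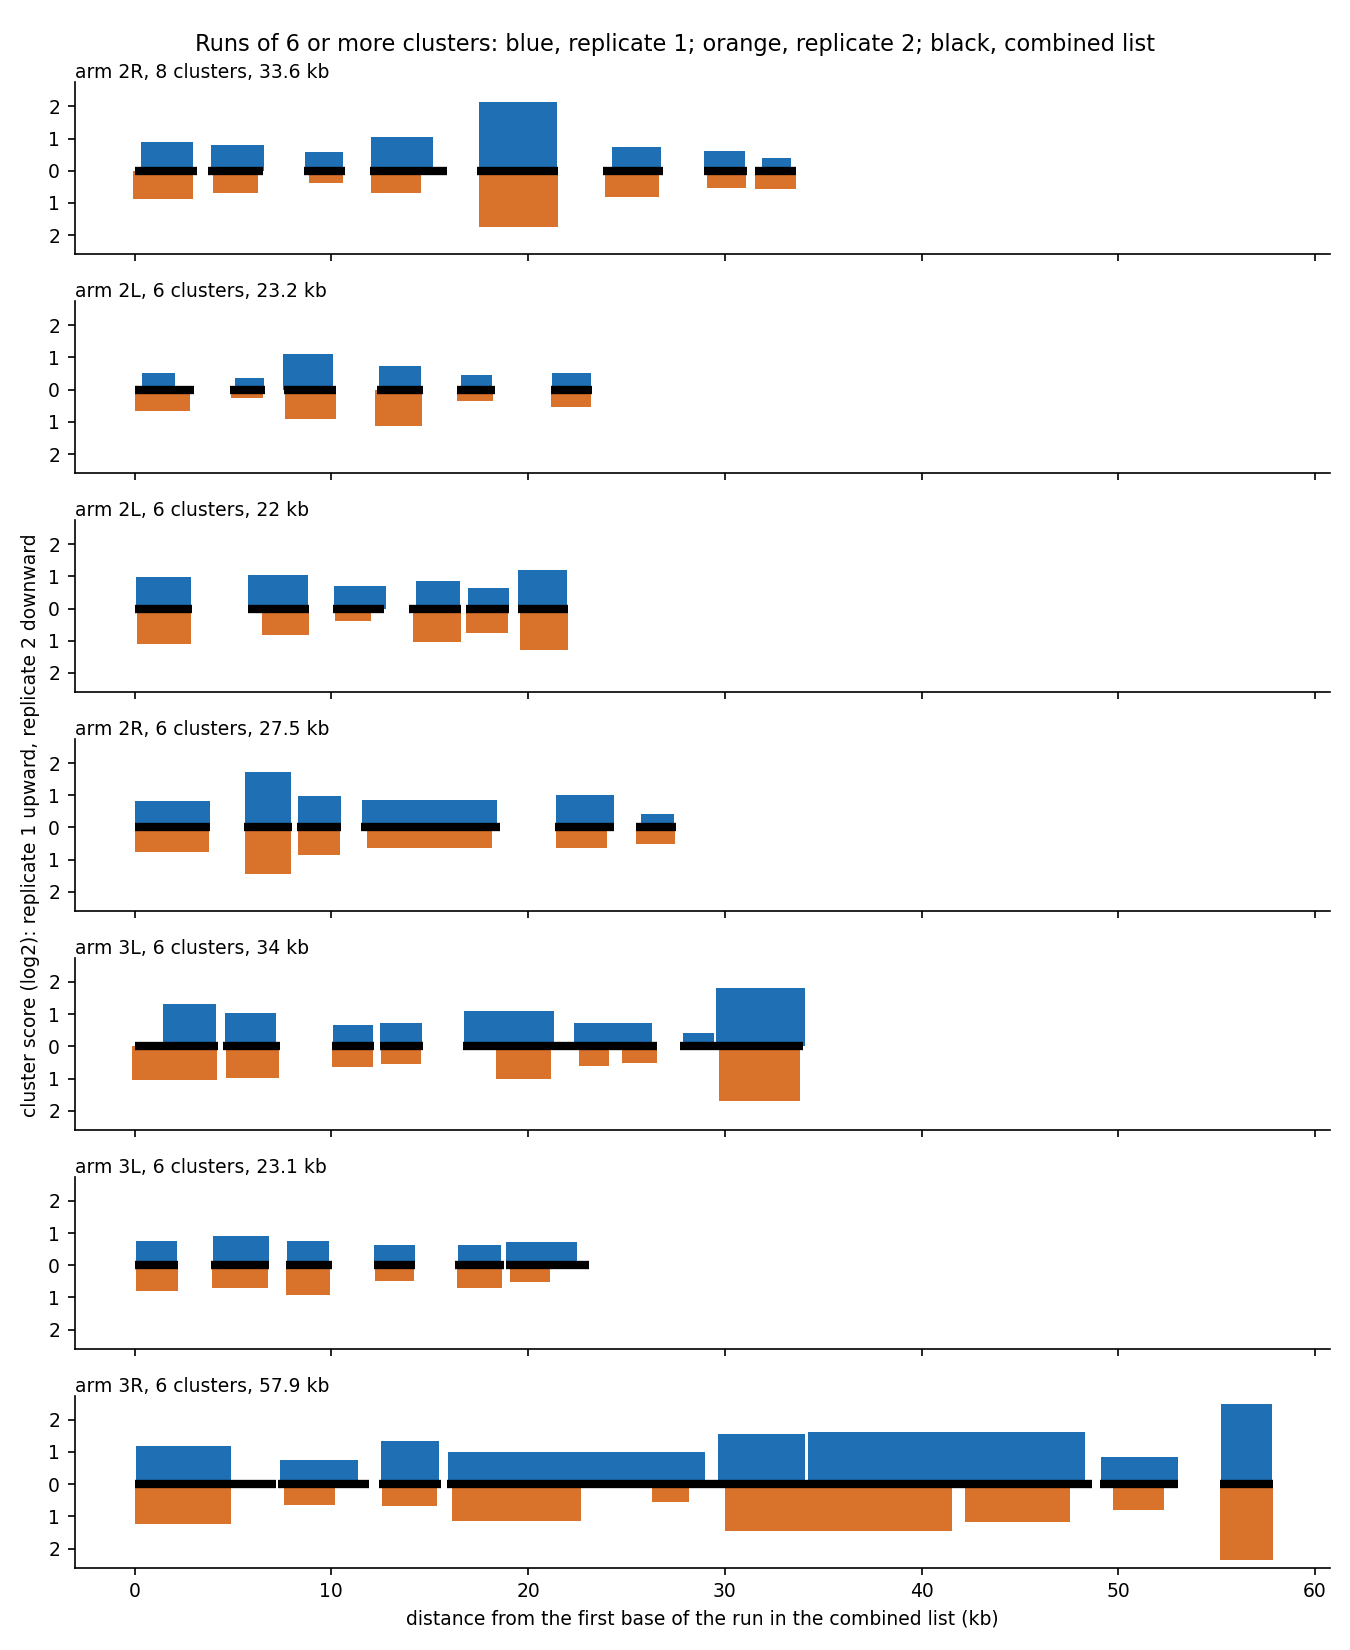
The 7 runs of 6 or more clusters, each in its own panel. The x axis is the distance in kb from the first base of the run, bars are the clusters of each replicate's own list with the log2 score as height (replicate 1 upward in blue, replicate 2 downward in orange), and black lines are the combined-list clusters. The fifth cluster of the run of 8 leads in both replicates, with scores of 2.13 and 1.76, and the widest cluster of the 3R run is split in both. Its break from 28.99 to 29.634 kb in replicate 1 lies within a break from 28.174 to 30.005 kb in replicate 2. Its other breaks differ in place.

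Some long spans came from wide clusters and not from many clusters. On 2R the second longest run, 44673 bp at 1217364 to 1262036, had 4 clusters, and the third, 40487 bp at 996037 to 1036523, had 3. Their widest members were 17158 and 31267 bp. In the run of 4, the scores were 1.22, 1.34, 1.41 and 0.76 in replicate 1 and 1.75, 1.15, 1.66 and 0.99 in replicate 2. In the run of 3 they were 0.69, 0.48 and 1.51 in replicate 1 and 0.78, 0.61 and 1.20 in replicate 2. Both runs were 1 chain in replicate 2 and were broken in replicate 1, where gaps of up to 7461 bp opened in the run of 4. Members wider than 10000 bp were rare in all, 8 of 843 (0.949%), beside 0.928% of all reproducible clusters on these arms.

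The runs with the highest median combined score all had 3 clusters. The first, 10421 bp at 2R 8921611 to 8932031, had scores of 0.73, 1.57 and 2.08 in replicate 1 and 0.36, 1.20 and 2.12 in replicate 2, so each cluster was higher than the one before. Its last cluster was the second strongest member. At 3R 1596344 to 1609019 the scores were 1.54, 1.61 and 0.65 in replicate 1 and 1.42, 1.39 and 0.64 in replicate 2, so that strong clusters lay side by side. At 3R 12902854 to 12914996 they were 1.51, 0.68 and 1.25, and 1.53, 0.94 and 1.15. At 3L 16370584 to 16380452 they were 0.83, 1.27 and 1.24, and 0.80, 1.11 and 1.09. At 3R 7033748 to 7049351 they were 1.16, 1.03 and 1.73, and 1.22, 1.21 and 1.72. In each of these 5 runs the weakest cluster was the same in both replicates, and in all but the run at 3R 1596344 the strongest was too.

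The 5 strongest members each led their run, which their choice as the highest of 843 scores nearly fixes. After the 3R cluster at 12085198 and the 2R clusters at 8928320 and 2548322 came 3R 21018637 to 21020886, with 1.86 in replicate 1 and 1.93 in replicate 2, and 3R 9842324 to 9845398, with 2.23 and 1.16. The next score in these runs was 0.69 to 1.39 in the combined list, beside 1.86 to 2.43 for the leaders, and over all 247 runs the median lead over the next cluster was 0.24. The last of the 5 was the member on which the replicates differed most, by a raw 1.07, although it led its run in both.

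Gaps inside runs were open in both replicates almost without exception. Of the 596 gaps, 594 (99.7%, exact interval 98.8 to 99.96%) had no single replicate cluster reaching over both sides, beside 99.2% of all 1157 gaps under 3000 bp, those of pairs included. The rule required the gap in the combined list, which was made from the same replicates, so little else could be found and nothing is read from this share. Replicate 1 bridged no gap, and replicate 2 bridged 2, which were 1 bp wide on 2R at 1246478 and 62 bp wide on 3R at 19758254 to 19758315. In 60.4% of the gaps no base was covered by a cluster in either replicate, beside 60.6% of all gaps under 3000 bp. A further combined-list cluster outside the reproducible set lay in 11 gaps, with scores of 0.32 to 0.48.

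The width of a gap was similar in the replicates. It was measured there between the clusters that overlap the flanking members. Over the 594 gaps that neither bridged, the median was 1304.5 bp in the combined list, 1588 bp in replicate 1 and 1628.5 bp in replicate 2. Of all 596 gaps, 549 (92.1%) were wider in replicate 1 than in the combined list, and 570 (95.6%) were wider in replicate 2. The rule limits the gap in the combined list only, so some of this widening can be built in. The same share for gaps in pairs was not worked out. Over the 594 gaps, the median absolute difference between replicates was 150 bp, with quartiles of 63 and 340 bp and a highest value of 3031 bp. Across these gaps, which share the 2 libraries, Spearman's rho was 0.893 and Pearson's r was 0.860.

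**Figure D3:**
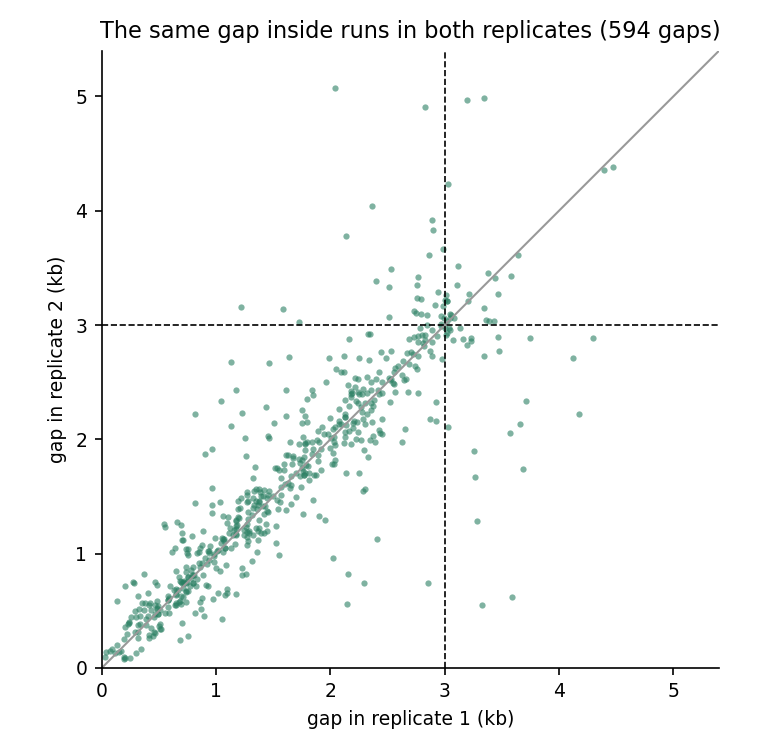
The width in kb of 594 gaps inside runs in replicate 1 (x axis) and replicate 2 (y axis), 1 point per gap, with the line of equal width and dashed lines at 3 kb. Most points lie along the line, with a median absolute difference of 150 bp between replicates, and points beyond a dashed line are gaps of 3 kb or more in that replicate, of which 1 in replicate 1 holds a further cluster of that replicate.

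Because gaps were wider in the replicates, some runs came apart in them. Of 596 gaps, 540 were under 3000 bp in replicate 1 itself and 537 in replicate 2, and 509 (85.4%) were in both, beside 83.9% of all gaps under 3000 bp. The 2 gaps that replicate 2 bridged, 1 and 62 bp wide in the combined list, have no width there. They are counted as not under the limit. The gaps lost were mostly wide ones, since 112 of 115 gaps under 500 bp stayed under the limit in both replicates, but 100 of 168 gaps of 2000 to 2999 bp did. A gap close to the limit passes it with little widening, so this dependence on size is largely built in. All members of a run lay in 1 chain of replicate 1's own list for 197 runs and of replicate 2's for 191, and in both for 171 runs (69.2%, interval 63.1 to 74.9%), beside 79.2% of all chains of 2 or more. Runs of 3 were in 1 chain in both lists in 131 of 175 cases, and runs of 4 in 30 of 51. Longer runs have more gaps that can be lost. A run of 3 or more clusters of the own list was overlapped by 215 runs in replicate 1, 213 in replicate 2 and 198 (80.2%) in both.

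Members had a slightly lower median score than other reproducible clusters in the combined list, and fewer of them were among the strongest. The median combined score was 0.72 for members, 0.74 for clusters in pairs and 0.74 for clusters alone. The direction was not stable, since members were higher by 0.0045 with a limit of 1000 bp and by 0.016 when all combined-list clusters were chained. In replicate 1 the medians were 0.79, 0.83 and 0.81, and in replicate 2 they were 0.76, 0.77 and 0.76. The SD between members was 0.31 in the combined list, and the raw difference between replicates at members had an SD of 0.18. At the top of the scale, 60 of 843 members (7.12%, interval 5.47 to 9.07%) had a combined score of at least 1.24, the limit of the highest 10%, which 10% of all reproducible clusters on these arms pass by definition. This share was 10.2% for clusters in pairs and 10.9% for clusters alone.

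**Figure D4:**
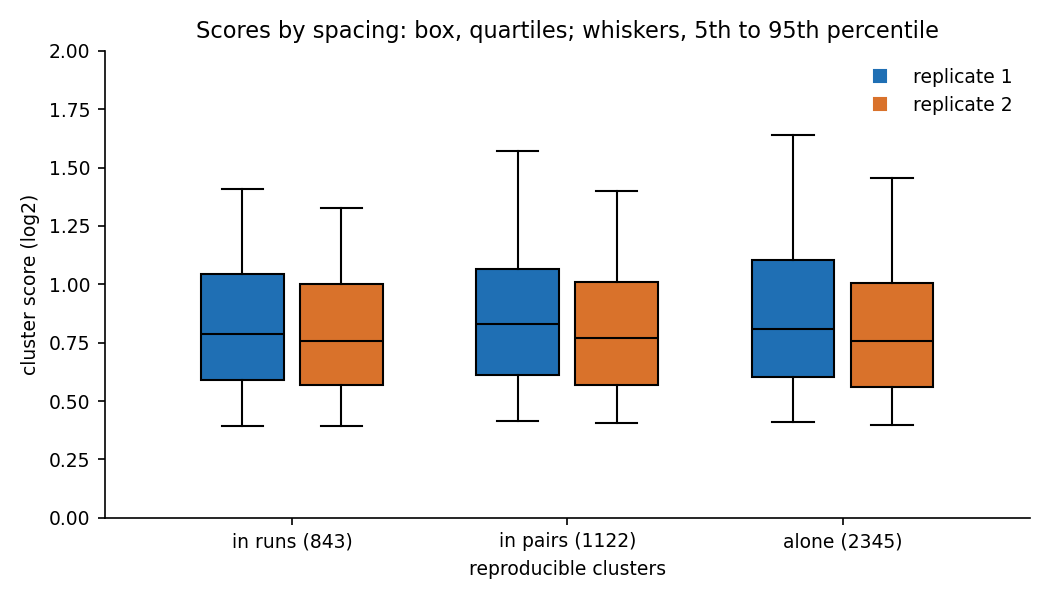
Log2 scores of reproducible clusters on the 4 arms by spacing, in replicate 1 (blue) and replicate 2 (orange). Boxes are quartiles with the median, whiskers reach from the 5th to the 95th percentile of clusters, and the numbers of clusters are under the axis. Medians lie between 0.76 and 0.83 in all 6 boxes.

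Strong and weak clusters were mixed within a run. The highest and the lowest combined score of a run were a median of 0.52 apart, with quartiles of 0.35 and 0.72, and the range was 0.56 in replicate 1 and 0.52 in replicate 2. The median absolute step from a cluster to its neighbour was 0.28. The middle 50% of raw differences between replicates at members lay from -0.07 to 0.13. These differences are signed values of single clusters, so they are not directly comparable with the steps. The median SD within a run, 0.26, was near the SD of 0.31 over all members. Scores of neighbours were nearly unrelated. Across the 596 neighbours in runs, which share libraries, Pearson's r was 0.0024 in the combined list, 0.02 in replicate 1 and 0.03 in replicate 2. The gap between neighbours was also nearly unrelated to the mean of their scores (Spearman rho -0.049). Wider members scored higher, with a Spearman rho of 0.575 over 843 members.

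The steps from a cluster to its neighbour were alike in the replicates. The difference between neighbours had the same sign in both at 485 of 596 steps (81.4%, interval 78.01 to 84.4%), beside 81% of all 1157 steps over a gap under 3000 bp. Large steps were the shared ones. Among steps of at least 0.5 in the combined list all 148 had the same direction in both replicates, and among steps under 0.1 only 42 of 118 did. The combined score was made from both replicates, so this dependence on size is in part built in. The same cluster was the highest of its run in both replicates in 183 of 247 runs (74.1%, interval 68.2 to 79.4%), beside 78.7% of all chains of 2 or more, which include pairs where 1 of 2 clusters must lead. In runs of 3 this held for 136 of 175, and the full order of the 3 scores was the same in 103.

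**Figure D5:**
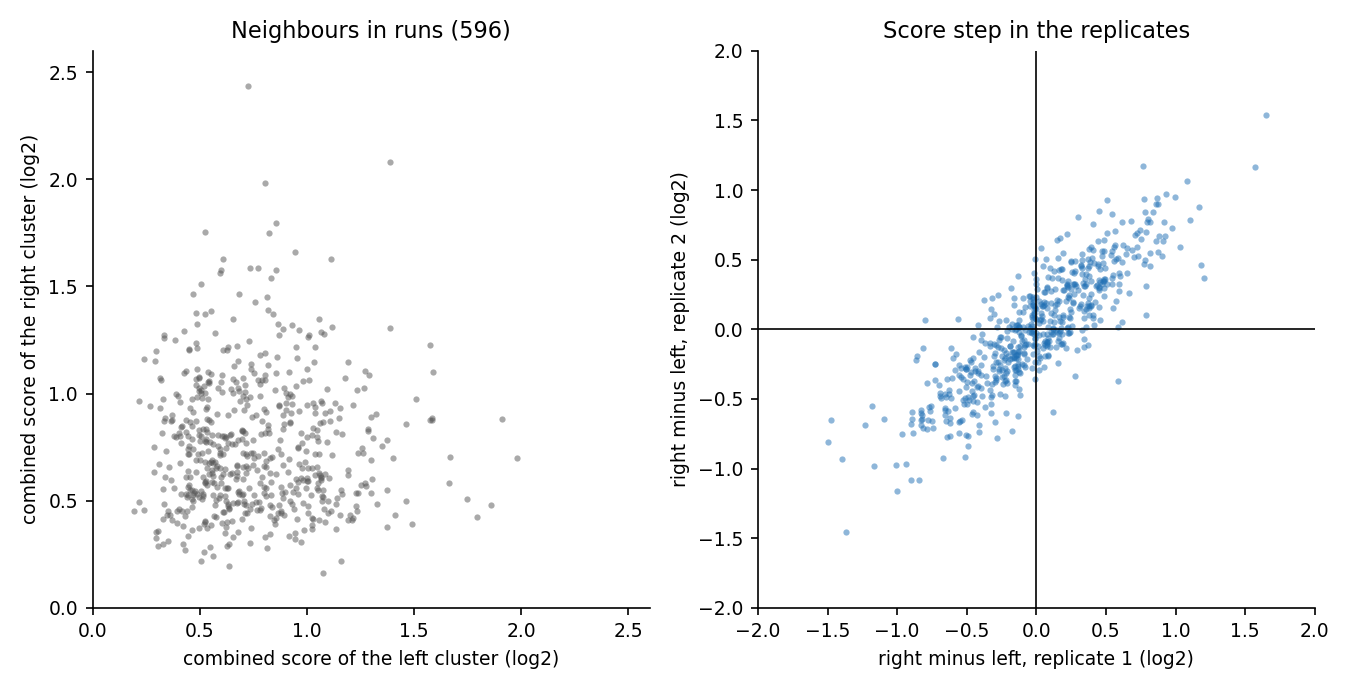
Left, the combined log2 score of the left cluster (x axis) and the right cluster (y axis) of the 596 neighbours in runs, a cloud with no trend (Pearson r 0.0024). Right, the step from left to right in replicate 1 (x axis) and replicate 2 (y axis), with 485 of 596 steps in the same direction in both.

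The replicates differed by more than 0.5 at few members. With the median difference between replicates over all reproducible clusters, 0.04, subtracted, replicate 1 was higher by more than 0.5 at 11 of 843 members (1.30%), beside 3.11% of all reproducible clusters on the 4 arms. Replicate 2 was higher by as much at 5 members (0.593%), beside 0.162% of all, and only 7 clusters of these arms were. The positions of the 5 are given after their values were seen. They lay at 2R 473656 to 477463 (0.63 in replicate 1 and 1.10 in replicate 2), 2R 1217364 to 1234521 (1.22 and 1.75), 2R 18302022 to 18304209 (0.40 and 0.91), 3L 3045430 to 3047988 (0.79 and 1.33) and 3R 7391332 to 7396027 (1.15 and 1.64), each in a run of its own. Among the 11, the widest differences were at 3R 9842324 to 9845398 (2.23 and 1.16) and 3R 4892909 to 4897180 (2.11 and 1.17).

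The leading cluster had no fixed place in a run. In the 175 runs of 3 the highest combined score was in the first cluster in 58 runs, the middle in 57 and the last in 60. In replicate 1 these numbers were 59, 53 and 63, and in replicate 2 they were 60, 57 and 58. The lowest combined score was in the first, middle and last cluster in 53, 66 and 56 of these runs. In replicate 1 the numbers were 50, 64 and 61, and in replicate 2 they were 58, 66 and 51. Over all runs, the 494 end clusters had a median combined score of 0.73 and the 349 inner clusters 0.69. In replicate 1 these medians were 0.81 and 0.76, and in replicate 2 they were 0.78 and 0.73. The ends thus had the higher median in all 3 lists, with no test made, but the combined list was made from the same replicates. Runs of 3 hold 2 end clusters and 1 inner cluster, and longer runs hold more inner ones. These medians therefore mix the place in a run with the length of the run. The median widths of end and inner clusters were 2585.5 and 2575 bp. Runs of 4 have as many inner places as end places. From first to last cluster, the highest combined score was there in 10, 14, 16 and 11 of the 51 runs of 4. In replicate 1 the numbers were 10, 12, 15 and 14, and in replicate 2 they were 9, 16, 14 and 12. For the 14 runs of 5 they were 4, 3, 1, 4 and 2 in the combined list. They were 5, 2, 1, 3 and 3 in replicate 1, and 5, 2, 1, 4 and 2 in replicate 2. No preferred place is read from these counts. A lead of more than 0.5 over the next cluster was seen in 49 runs.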

How the data were processed

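Lists of significantly enriched regions were deposited by the authors, called once per ChIP replicate and once for the replicate set, and per the file headers the coordinates follow FlyBase release 5. The submitters' processing notes name Bowtie 0.12.7. The sources used here do not name the peak caller, its threshold or the method of combining replicates. The deposited scores are log2 values. This was settled from the values: as powers of 2, relative to 1 score of the list, they came out as whole-number ratios (within a relative 1e-11, with denominators of at most 3000) for at least 99.3% of 600 sampled scores in each list, and for base e or 10 for at most 0.333%. Whether the lists share a zero point is not stated, so a raw difference between replicates can hold an offset. The median raw difference over reproducible clusters, 0.04, was subtracted where clusters that differ by more than 0.5 were counted, and not elsewhere. Inputs entered through the authors' calling and were not analysed here.

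The gap is the next start minus the previous end minus 1. A member's replicate score is that of its highest-scoring overlapping cluster. The runs named are the 5 with the most clusters, the longest spans and the highest median combined scores, and the fullest of each arm, with the 5 strongest members. The members and these lists were chosen with earlier results of these data known. Shares carry 95% exact (Clopper-Pearson) intervals. These count clusters, gaps and steps as independent, which those of the same run are not, so they are likely too narrow. Chaining was tested on simulated data. The work used Python 3.11.15, NumPy 2.4.6, SciPy 1.17.1 and matplotlib 3.10.9.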

Additional observations from a re-analysis of the deposited data

How the results depend on the processing

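The number of runs and members depended on the gap limit, the distance measure and the list. With limits of 1000, 2000 and 5000 bp in place of 3000 bp there were 158, 447 and 1476 members (3.67, 10.4 and 34.2% of reproducible clusters) in 51, 138 and 392 runs. With midpoints under 5000 bp apart there were 442 members (10.3%) in 136 runs, with clusters at or above the median score 89 (4.13%) in 29, over all combined-list clusters 2008 (31.6%) in 541, and in runs of 4 or more 318 (7.38%) in 72. The own lists gave shares of 21.9% in replicate 1 and 22.7% in replicate 2. Without 1 of the replicates in the rule there were 1090 to 1093 members and 313 runs, with a share of 22.3 to 23.1%. The median score of members minus that of the other clusters stayed near 0 and changed sign. It was -0.022 in the report's rule, -0.00055, 0.0045 and -0.028 at limits of 2000, 1000 and 5000 bp, -0.067 with midpoints, -0.029 with at least 50% of a cluster covered, -0.023 above the median score, 0.016 over all combined-list clusters, -0.0053 and -0.0058 in the own lists, -0.023 to -0.00022 without 1 of the replicates, and -0.022 in runs of 4 or more. Gaps open in both replicates were 98.1% at 1000 bp, 98.3% above the median score, 98.8 to 99.2% without 1 of the replicates, and 80.5% when at least 500 bp had to be uncovered, since 115 of 596 gaps are under 500 bp. Of the other 481, 480 had 500 bp uncovered. The share of runs with the same leading cluster kept within its interval under both of its alternatives. No paired analysis was possible because the inputs, which share replicate numbers with the ChIP samples, have no list of their own here. Depth is unknown, so weak clusters missing from a list were not separated from unbound sequence.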
